A study of Mus musculus with 10 samples.

Results

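The 9 genes described here act in blood coagulation and in fibrinolysis, the breakdown of the fibrin clot: F3, Thbd, F2r, Serpind1, Serpine2, Plat, Plau, Plaur and Thbs1. They were selected by gene symbol, and all 9 were found among the 24391 gene names of the count files. RNA was sequenced from the whole hippocampus of both hemispheres of adult male C57BL/6J mice, 1 library per mouse, 4 days after the procedure. In the SAH group (n = 4), subarachnoid hemorrhage was produced under isoflurane by pushing a filament through the wall of an artery at the circle of Willis, and mice were retained only when cerebral blood flow dropped markedly at perforation. In the Sham group (n = 3) the filament was advanced without puncture, and Naive mice (n = 3) had no surgery. The mice carried no transgene and received no drug. Sham and Naive mice together formed the control group (n = 6). Mice are numbered 1 to 4 in SAH, 5 to 7 in Sham and 8 to 10 in Naive.

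Coagulation starts when tissue factor, the product of F3, meets factor VII in blood, and it runs through factor X to thrombin, which cuts fibrinogen to fibrin. Thrombin is restrained by serpins, such as heparin cofactor II (Serpind1) and protease nexin 1 (Serpine2), and is redirected by thrombomodulin (Thbd), a receptor of the vessel lining that makes thrombin activate the anticoagulant protein C. Cells sense thrombin through protease-activated receptors, of which F2r encodes the first to be described. Fibrin is dissolved by plasmin, which the tissue-type (Plat) and urokinase-type (Plau) activators release from plasminogen, and Plaur holds urokinase at the cell surface. In the brain, tissue factor is abundant in astrocytes, and tissue-type plasminogen activator is made by neurons as well as by vessels.

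In SAH against control, 2 of the 9 genes were higher, Thbd (fold 2.05) and, less evenly between mice, Serpind1 (fold 2.15). The other 7, which include both plasminogen activators, tissue factor and the thrombin receptor, did not pass the test. A gene was called at a Benjamini-Hochberg adjusted p under 0.10 by edgeR's quasi-likelihood test, with p-values adjusted over all 14993 genes tested. All 9 genes passed the filter on low counts. Over all genes tested, 3.13% were called higher and 1.54% lower in that comparison. None of the 9 was called lower. The call of Serpind1 was lost in 7 of the 10 fits made with a mouse removed. In SAH against Sham, edgeR called neither gene. At an unadjusted p under 0.05, 3 of the 9 passed (Plaur being the third), as did 17% of all genes tested, and DESeq2 also called 2. The median log2 fold change was 0.13 over the 9 genes and -0.0024 over all genes tested, and 8 of the 9 estimates were positive, as were 49.1% over all genes.

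Libraries held 19743388 to 27254655 counts assigned to genes, and no pair of mice had counts within sampling noise of each other. The 6 hippocampal neuron markers summed to 3231 to 3512 CPM (counts per 1000000 counts of a library, after TMM scaling of its size) in every mouse, with 1 of them, C1ql2, called higher in SAH against control (log2 fold change 0.34, adjusted p = 0.0727). All 4 oligodendrocyte markers were called lower in SAH against control, at a sum of 4023 to 5187 CPM in SAH and 5926 to 8277 CPM in control mice. Of the 6 astrocyte markers, Gfap was called higher (log2 fold change 1.00, adjusted p = 0.00535). The part of these shifts in the results for the 9 genes was not tested. The 6 markers of choroid plexus epithelium summed to 1218, 858 and 822 CPM in SAH mouse 3, SAH mouse 4 and Sham mouse 7, and to 43.9 to 213.9 CPM in the other 7 mice, with 0 of the 6 called in SAH against control. Values without those 3 mice are also given where leaving them out ended a call in SAH against control, turned a direction or moved a called log2 fold change by over 1.5 times. The 4 liver genes summed to 1.015 CPM at most. The amount of blood was not measured, since the globin genes Hba-a1 and Hbb-b1 were listed at 0 in every mouse and genes with near-identical copies lose reads in this counting. In bulk tissue, fewer cells of a type and less RNA per cell cannot be told apart.

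Per length of exon, the 9 genes covered a wide range of levels. Serpine2 stood highest at 85.0 ± 3.5 FPKM (CPM per kilobase of exon; mean ± SD, n = 4) in SAH, 85.6 ± 2.6 in Sham (n = 3) and 84.0 ± 2.8 in Naive (n = 3). It was at the 95.1st percentile of the genes tested. F3 followed at 26.3 ± 4.3, 25.1 ± 2.9 and 24.0 ± 1.1 FPKM, and Plat at 18.2 ± 5.8, 15.9 ± 0.14 and 17.3 ± 1.7 FPKM in the same order of groups. The remaining 6 genes all had group means under 3 FPKM, at the 5.11th to 25.8th percentile. Plaur was lowest, at 0.44 ± 0.20 FPKM in SAH, 0.16 ± 0.089 in Sham and 0.31 ± 0.063 in Naive.

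The order of these levels was the same at the top in every group, with mean Serpine2 above F3 and F3 above Plat, although F3 (23.02 to 32.08 FPKM) and Plat (13.56 to 26.63 FPKM) overlapped in SAH. In Sham and in Naive the ranges of neighbours did not overlap from Serpine2 down through F3, Plat, F2r and Thbd, and they overlapped among Serpind1, Plau and Thbs1, as they did for Thbd and Plau in Naive. In SAH, Thbd (2.97 ± 0.75 FPKM) was ranked above F2r (2.41 ± 0.14 FPKM), whereas F2r was ranked above Thbd in both other groups. That exchange of rank in SAH was within the spread of the mice, since Thbd ran from 1.957 to 3.759 FPKM and F2r from 2.243 to 2.575. From F2r down to Plaur, each neighbour in SAH overlapped the next.

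**Figure D1:**
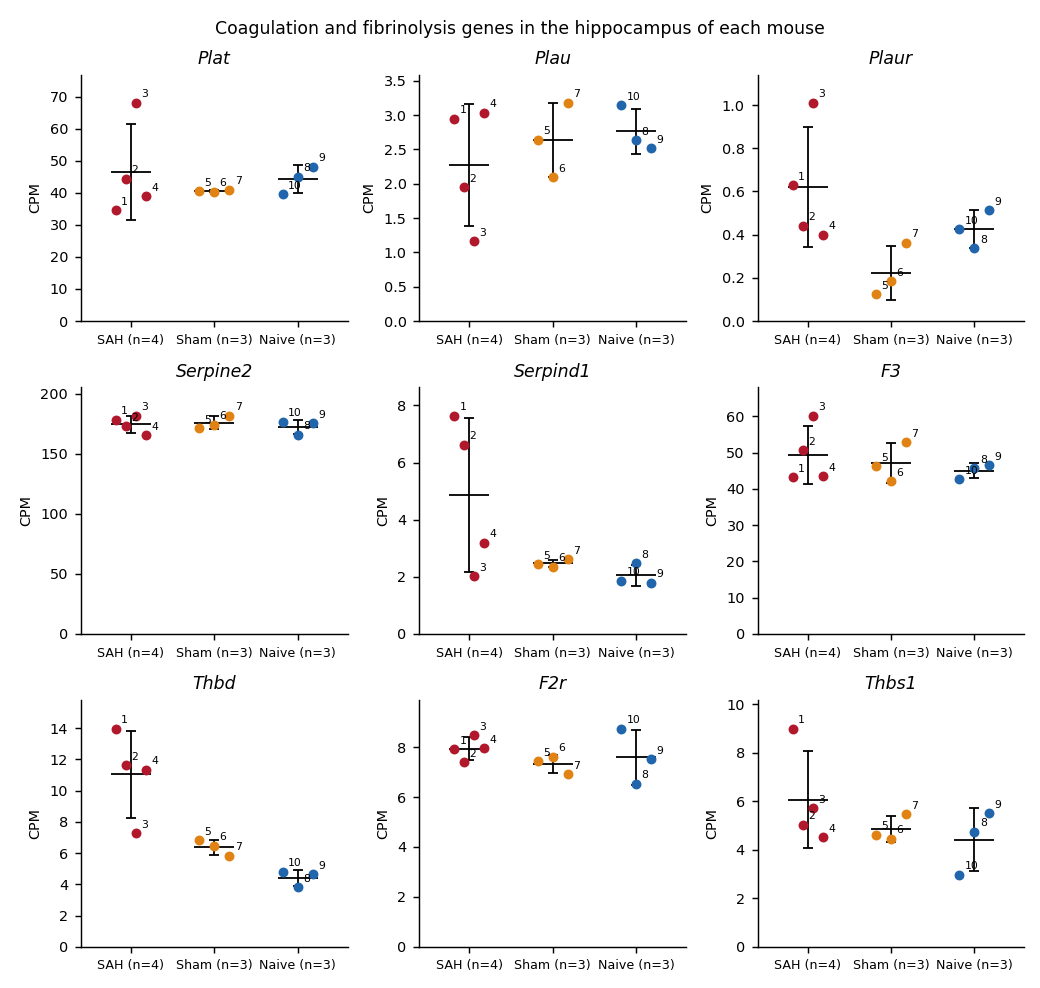
CPM of each of the 9 genes in every mouse (y axis, starting at 0), with mouse numbers beside the points, the group mean as a horizontal bar and the SD as whiskers (SAH n = 4, Sham n = 3, Naive n = 3). Thbd runs from 7.28 to 13.97 CPM in SAH and from 3.80 to 6.81 in the 6 control mice, while Serpine2 stays between 165.5 and 181.8 CPM in all 10.

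Tissue factor, the starter of coagulation, did not pass the test. F3 (NCBIM37, the mm9 assembly, chromosome 3, 121426455 to 121437970, 6 exons) was read at 43.2, 50.7, 60.2 and 43.5 CPM in SAH mice 1 to 4, at 46.3, 42.1 and 52.9 CPM in Sham mice 5 to 7, and at 45.8, 46.5 and 42.7 CPM in Naive mice 8 to 10. The groups overlapped, and SAH mouse 3 and Sham mouse 7, both rich in choroid plexus markers, gave the highest values. In SAH against control its log2 fold change was 0.10 (SE 0.091, 95% confidence interval -0.10 to 0.29, adjusted p = 0.606).

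Thbd alone of the 9 genes separated the 4 SAH mice from the 6 control mice without overlap, with SAH above, as did 2.83% of all genes tested. Thbd (chromosome 2, 148230207 to 148233924, minus strand) consists of 1 exon of 3718 bases. It was read at 13.97, 11.62, 7.28 and 11.35 CPM in SAH mice 1 to 4, from 289, 316, 144 and 284 counts. In Sham mice 5 to 7 it was read at 6.81, 6.47 and 5.83 CPM, and in Naive mice 8 to 10 at 3.80, 4.63 and 4.80 CPM. The 3 groups formed 3 steps that did not overlap, with Naive lowest, Sham between and SAH highest, and SAH mouse 3 stood closest to the Sham mice. The share of all genes with these 3 steps was not counted. The step from Naive to Sham did not pass the test (adjusted p = 0.9998). Every Sham mouse was above every Naive mouse in 4.84% of all genes. The log2 fold change in SAH against control was 1.04 (SE 0.18, 95% confidence interval 0.65 to 1.42, adjusted p = 0.00773), a fold of 2.05. The call was kept with each of the 10 mice left out in turn, at 0.91 to 1.19 on the log2 scale and adjusted p of 0.000624 to 0.0317. Without the 3 mice rich in choroid plexus markers the log2 fold change was 1.26 (adjusted p = 0.00117). Those mice included SAH mice 3 and 4, the lowest of the SAH group for Thbd.

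The thrombin receptor F2r (chromosome 13, 96371744 to 96388388, minus strand, 2 exons) did not pass the test. It was read at 7.93, 7.39, 8.49 and 7.95 CPM in SAH mice 1 to 4, at 7.43, 7.61 and 6.92 CPM in Sham mice 5 to 7, and at 6.54, 7.51 and 8.74 CPM in Naive mice 8 to 10. The highest and the lowest values of all 10 both came from Naive mice. The log2 fold change in SAH against control was 0.089 (95% confidence interval -0.11 to 0.28, adjusted p = 0.648), so that an increase above 0.28 on the log2 scale lay outside the interval.

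Of the inhibitory serpins, Serpind1 rose in SAH and Serpine2 did not pass the test. Serpind1 (chromosome 16, 17331464 to 17343665, 5 exons) lies within the span of Pi4ka on the opposite strand, with 0 exon bases in common, and the counting used strand. It was read at 7.64, 6.62, 2.02 and 3.20 CPM in SAH mice 1 to 4, from 158, 180, 40 and 80 counts. In Sham mice 5 to 7 it was read at 2.44, 2.35 and 2.62 CPM, and in Naive mice 8 to 10 at 2.48, 1.80 and 1.87 CPM. SAH mice 1 and 2 stood well above every control mouse, SAH mouse 4 stood slightly above them, and SAH mouse 3 fell within the control range. Serpind1 thus had a log2 fold change in SAH against control of 1.11 (SE 0.29, 95% confidence interval 0.48 to 1.73, adjusted p = 0.0648), a fold of 2.15.

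The call of Serpind1 depended on single mice. Of the 10 fits made with a mouse removed, 7 lost it. They were those lacking SAH mouse 1 (log2 fold change 0.82, adjusted p = 0.132), SAH mouse 2 (0.91, adjusted p = 0.129), any of the 3 Naive mice, or Sham mouse 5 or 6, with adjusted p of 0.107 to 0.136 over these 7. With SAH mouse 3 removed, Serpind1 was at 1.35 (adjusted p = 0.00363). It was at 1.69 (adjusted p = 4.3e-05) without the 3 mice rich in choroid plexus markers. That fit dropped SAH mice 3 and 4, which held the least Serpind1 of the SAH group, so its larger value is no check of the call.

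Serpine2 (chromosome 1, 79790896 to 79855240, minus strand, 9 exons), an inhibitor of thrombin and of both plasminogen activators, had the shortest confidence interval of the 9. It was read at 178.6, 173.3, 181.7 and 165.5 CPM in SAH mice 1 to 4, at 171.2, 174.4 and 181.8 CPM in Sham mice 5 to 7, and at 166.1, 175.4 and 176.7 CPM in Naive mice 8 to 10. The groups overlapped, and the log2 fold change in SAH against control was 0.0038 (95% confidence interval -0.078 to 0.086, adjusted p = 0.971).

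Neither plasminogen activator passed the test. Plat (chromosome 8, 23868194 to 23893320, 14 exons) was read at 34.6, 44.4, 68.0 and 38.9 CPM in SAH mice 1 to 4, at 40.5, 40.3 and 41.0 CPM in Sham mice 5 to 7, and at 45.0, 48.1 and 39.5 CPM in Naive mice 8 to 10. SAH mouse 3 gave the highest value of all 10 and SAH mouse 1 the lowest, so that the SAH range enclosed the control range. The log2 fold change in SAH against control was 0.13 (SE 0.14, 95% confidence interval -0.18 to 0.44, adjusted p = 0.675). Without SAH mouse 3 it was -0.10 (adjusted p = 0.643), and without the 3 mice rich in choroid plexus markers it was also -0.10 (adjusted p = 0.783).

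Plau (chromosome 14, 21655884 to 21662610, 11 exons) was the one gene of the 9 with a negative estimate in SAH against control. It was read at 2.95, 1.95, 1.16 and 3.04 CPM in SAH mice 1 to 4, at 2.64, 2.10 and 3.18 CPM in Sham mice 5 to 7, and at 2.63, 2.52 and 3.14 CPM in Naive mice 8 to 10. SAH mice 2 and 3 were below all 6 control mice and SAH mice 1 and 4 were within their range. The log2 fold change in SAH against control was -0.24 (SE 0.22, 95% confidence interval -0.72 to 0.24, adjusted p = 0.616). With 1 mouse left out it ran from -0.415 to -0.036. In SAH mouse 3, Plat was at its highest and Plau at its lowest.

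Plaur (chromosome 7, 25247519 to 25260892, 7 exons), the urokinase receptor, was counted only 3 to 20 times per mouse. Its counts were 13, 12, 20 and 10 in SAH mice 1 to 4, 3, 5 and 9 in Sham mice 5 to 7, and 9, 10 and 10 in Naive mice 8 to 10, which gave 0.63, 0.44, 1.01 and 0.40 CPM, 0.12, 0.18 and 0.36 CPM, and 0.34, 0.51 and 0.42 CPM. SAH lay above Sham in every mouse and overlapped Naive. The log2 fold change in SAH against control was 0.91 (SE 0.38, 95% confidence interval 0.10 to 1.73, unadjusted p = 0.0302, adjusted p = 0.238), and without SAH mouse 3 it was 0.60 (adjusted p = 0.558). The change of Plaur did not pass the adjusted threshold, and the part of its low counts in that was not tested.

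The balance of tissue-type activator to its inhibitor in the same mouse was also compared. The log2 ratio of Plat to Serpine2 CPM was -1.96 ± 0.40 in SAH (n = 4) and -2.04 ± 0.13 in control (n = 6), where SAH ran from -2.36 to -1.42 and control from -2.16 to -1.87. The SAH mice enclosed the control range, and the difference of 0.083 did not pass an exact 2-sided permutation test over mice (p = 0.695).

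Thbs1 (chromosome 2, 117937658 to 117952869, 22 exons) encodes thrombospondin 1, a glycoprotein that platelets release and that also acts in the extracellular matrix. It was read at 8.99, 5.04, 5.71 and 4.52 CPM in SAH mice 1 to 4, at 4.62, 4.45 and 5.47 CPM in Sham mice 5 to 7, and at 4.74, 5.50 and 2.97 CPM in Naive mice 8 to 10. SAH mouse 1 stood apart at the top and the other 3 SAH mice were close to or within the control range. SAH against control gave a log2 fold change of 0.38 (SE 0.20, 95% confidence interval -0.041 to 0.81, adjusted p = 0.349), and without SAH mouse 1 it was 0.13 (adjusted p = 0.701). Without the 3 mice rich in choroid plexus markers it was 0.64 (adjusted p = 0.245).

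The comparisons with each control group separately shared the SAH mice, and all came from 1 fit of the 3 groups to 15134 genes, so they are given side by side and are not independent of each other. In SAH against Sham, 0 of the 9 genes were called by edgeR, beside 0.529% of all genes called higher and 0.192% lower. Before adjustment 3 had a p under 0.05 (Thbd, Serpind1 and Plaur), as had 9.69% of all genes, and DESeq2 called 1, Thbd. Thbd missed the threshold narrowly, at a log2 fold change of 0.80 (SE 0.18, 95% confidence interval 0.41 to 1.19, adjusted p = 0.1004), and its adjusted p was 0.00538 with DESeq2 and 0.00538 to 0.239 over 6 alternatives. Without SAH mouse 3, Thbd was called at 0.95 (adjusted p = 0.00225) and Serpind1 at 1.23 (adjusted p = 0.0476). No other fit with 1 mouse left out called either gene. Those fits went down to 0.67 for Thbd and 0.70 for Serpind1, with adjusted p up to 0.347 and 0.714. With all mice, Serpind1 was at 0.99 (95% confidence interval 0.20 to 1.77, adjusted p = 0.383) and Plaur at 1.42 (95% confidence interval 0.43 to 2.40, adjusted p = 0.281). Thbd and Plaur were the 2 of 9 genes in which every SAH mouse was above every Sham mouse, as were 5.03% of all genes.

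In SAH against Naive, 1 of the 9 genes was called higher, Thbd, at a log2 fold change of 1.33 (SE 0.19, 95% confidence interval 0.92 to 1.74, adjusted p = 0.0046) and a fold of 2.52. Over all genes, 2.03% were called higher and 0.965% lower, and none of the 9 was called lower. In the same comparison 2 of the 6 choroid plexus markers were called higher, Kcnj13 (log2 fold change 3.64, adjusted p = 0.0363) and Ttr (4.30, adjusted p = 0.0874), and their part in the change of Thbd was not tested. Serpind1 was at 1.24 (95% confidence interval 0.43 to 2.05, adjusted p = 0.136), and DESeq2 called it (adjusted p = 0.0282, and 0.0282 to 0.242 over 6 alternatives), as did edgeR without SAH mouse 3 (1.49, adjusted p = 0.0102). No other fit with 1 mouse left out called Serpind1, at adjusted p up to 0.408. Thbd was also the 1 gene of the 9 with every SAH mouse above every Naive mouse, as in 7.04% of all genes.

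In Sham against Naive, which bears on the surgery and anesthesia without the bleed, 0 of the 9 genes were called by edgeR and 0 by DESeq2, beside 0.00661% of all genes called higher and 0% lower. Thbd was the 1 gene of the 9 at an unadjusted p under 0.05, a threshold that 2.02% of all genes passed, with a log2 fold change of 0.54 (SE 0.20, 95% confidence interval 0.094 to 0.98, unadjusted p = 0.0213, adjusted p = 0.9998). All 3 Sham mice lay above all 3 Naive mice for Thbd alone of the 9, as in 4.84% of all genes. Plaur had a negative log2 fold change, -0.90 (95% confidence interval -1.99 to 0.20, adjusted p = 0.9998), on counts of 3 to 10. The other 7 log2 fold changes lay between -0.12 and 0.26, and none passed.

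**Figure D2:**
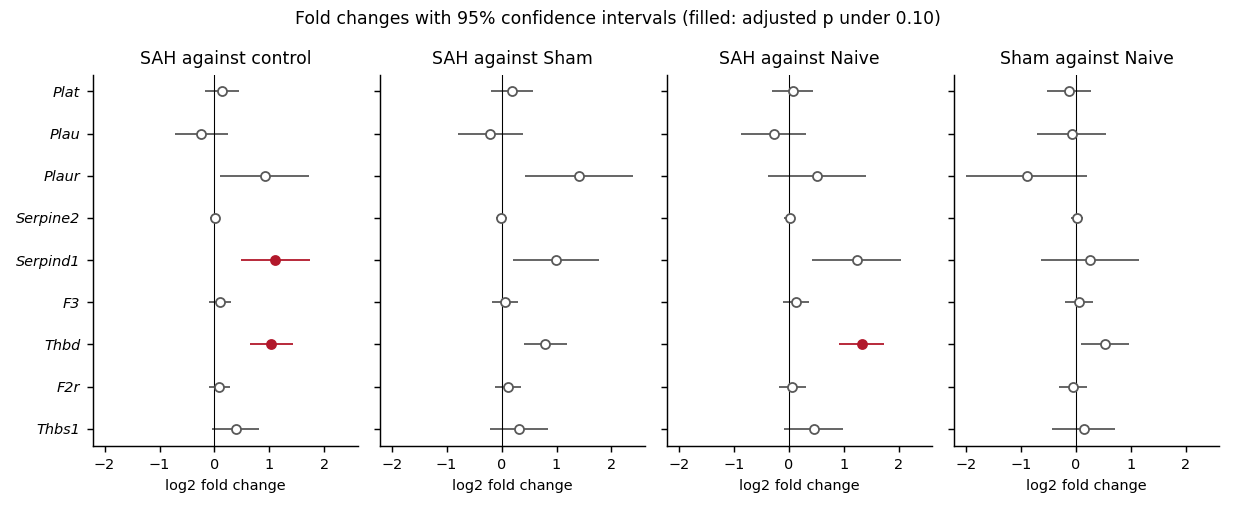
Log2 fold changes (x axis) of the 9 genes in the 4 comparisons, with 95% confidence intervals as horizontal lines and filled points where the adjusted p was under 0.10. Thbd and Serpind1 are filled in SAH against control and Thbd in SAH against Naive, and the intervals of Serpine2 are the shortest in every panel.

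Some markers of the brain coverings and vessels were also higher in SAH, but not all in the same mice as the 2 called genes. The 8 markers of meningeal and perivascular fibroblasts, 7 of which were called higher in SAH against control, summed to 182.6, 191.2, 103.3 and 150.3 CPM in SAH mice 1 to 4, to 127.2, 121.1 and 95.4 CPM in Sham and to 101.7, 94.7 and 95.7 CPM in Naive. As with Serpind1, SAH mice 1 and 2 were highest, SAH mouse 4 was next and SAH mouse 3 lay in the control range. The 8 endothelial markers, of which 4 were called higher (Pecam1, Cdh5, Flt1 and Tie1), summed to 105.7 to 213.5 CPM in SAH, 88.5 to 105.1 in Sham and 91.4 to 128.4 in Naive. There SAH mouse 4 was highest and SAH mouse 1, which held the most Thbd and Serpind1, was lowest of the SAH mice. Of the 7 pericyte and smooth muscle markers 3 were called higher (107.9 to 159.2, 91.9 to 100.5 and 85.8 to 103.7 CPM in SAH, Sham and Naive, again lowest in SAH mouse 1 and highest in SAH mouse 4 within SAH), as were 3 of the 7 border macrophage and monocyte markers (14.4 to 19.3, 8.21 to 9.70 and 5.30 to 5.81 CPM). The border macrophage sum, like Thbd, was lowest in Naive, intermediate in Sham and highest in SAH, with no overlap between groups. The part of these cell types in the changes of Thbd and Serpind1 was not tested.

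**Figure D3:**
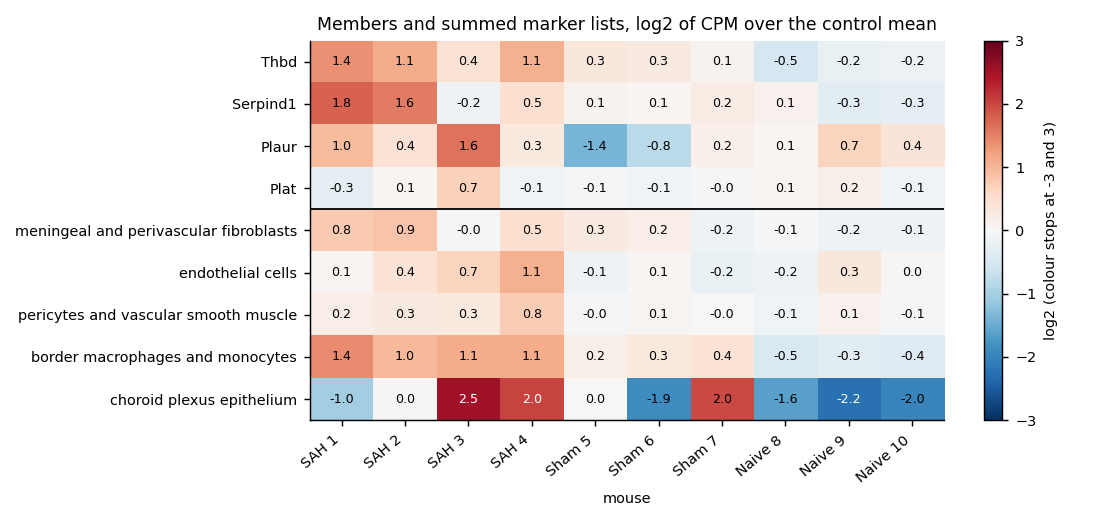
Log2 of each mouse's CPM over the mean of the 6 control mice (color and printed value), for 4 of the genes above the line and for the summed markers of 5 cell types below it, with 1 column per mouse. Serpind1 and the fibroblast markers are both high in SAH mice 1 and 2 and near 0 in SAH mouse 3, whereas the choroid plexus markers are high in SAH mice 3 and 4 and Sham mouse 7.

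The genes whose levels over the 10 mice were most like those of each member were listed by Pearson's r of log2 CPM. For Thbd they were Fmod (r = 0.974) and Angpt2 (r = 0.966), and for Serpind1 they were Col3a1 (r = 0.957), one of the fibroblast markers, and Pf4 (r = 0.949), a chemokine of platelets and of some macrophages. For Plat they were Traf6 (0.973) and Sh3gl1 (0.970), for Plau Arpp19 (0.977) and Ngef (0.966), for Plaur Pcdhga10 (0.970) and Mmd2 (0.930), and for Serpine2 Ncl (0.963) and Ola1 (0.949). For F3 they were Rrp8 (0.946) and Il7r (0.913), for F2r Nol11 (0.880) and Zbtb14 (0.873), and for Thbs1 Cdc20 (0.888) and Melk (0.885). No gene was shared between the lists of 2 members. Spearman's rho of the same pairs ran from 0.673 (Plat with Sh3gl1) to 0.976 (F3 with Il7r). These values describe 10 points in 3 groups that share their libraries, and they carry no test. The values of r are the highest and second highest for each member over all genes tested.

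All of the other pathway genes that were called were higher in SAH. Of 57 further genes of coagulation, fibrinolysis, platelets and thrombospondins, 29 passed the filter on low counts, 11 were called higher in SAH against control and 0 lower, beside 3.13% and 1.54% of all genes. Every SAH mouse was above every control mouse in 8 of the 29, and in 2.83% of all genes. The median log2 fold change of the 29 was 0.15, and 20 were positive, beside a median of -0.0024 and 49.1% positive over all genes. The 28 that were not tested were counted too rarely. Since the list was chosen with earlier results of these data known, these shares do not measure a rise of the pathway as a whole.

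Among the direct partners of the plasminogen activators, Anxa2, which binds plasminogen and tissue-type activator at the cell surface, rose by 0.71 on the log2 scale (SE 0.11, adjusted p = 0.00375), from 7.51 to 9.60 CPM in control mice to 12.4 to 17.4 CPM in SAH. Its partner subunit S100a10 differed by 0.14 on the log2 scale (adjusted p = 0.356). Lrp1, a receptor that clears activators bound to their inhibitors, differed by 0.15 (adjusted p = 0.471), and by -0.069 (adjusted p = 0.854) without the 3 mice rich in choroid plexus markers. A2m, a broad protease inhibitor, rose by 1.504 on the log2 scale (SE 0.28, adjusted p = 0.012). It was at 7.93, 6.18, 21.4 and 13.1 CPM in SAH mice 1 to 4 and at 3.55 to 5.99 CPM in control mice, so that SAH mice 3 and 4 were highest. Without the 3 mice rich in choroid plexus markers the rise was 0.85 on the log2 scale (adjusted p = 0.00351). Plasminogen itself, Plg, was counted 0 to 3 times per mouse.

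Of the other serpins, Serping1, the inhibitor of complement C1 and of factor XII, rose by 1.17 on the log2 scale (SE 0.11, adjusted p = 0.000328). It was at 14.8 to 17.7 CPM in SAH, 8.01 to 9.23 in Sham and 6.33 to 6.58 in Naive, without overlap between groups. Its step from Naive to Sham did not pass the test (adjusted p = 0.9998). Serpinf2, the main plasmin inhibitor, rose by 0.97 on the log2 scale (SE 0.29, adjusted p = 0.0983), on 11 to 43 counts per mouse. Its call was lost in 8 of the 10 fits made with a mouse removed, all but those without SAH mouse 1 or 2, and without the 3 mice rich in choroid plexus markers (0.42, adjusted p = 0.702). It was lost too with Sham and Naive averaged in a fit of the 3 groups (adjusted p = 0.117). Neuroserpin, Serpini1, the neuronal inhibitor of tissue-type activator, had a log2 fold change of 0.048 (95% confidence interval -0.053 to 0.15, adjusted p = 0.631) and between 229.8 and 266.9 CPM in every mouse.

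On the side of thrombin, Tfpi, the inhibitor of tissue factor, rose by 0.62 on the log2 scale (SE 0.14, adjusted p = 0.0288), at 4.04 to 4.70 CPM in SAH and 2.18 to 3.60 CPM in control mice. Without the 3 mice rich in choroid plexus markers its log2 fold change was 0.60 (adjusted p = 0.163). Pros1, the protein S cofactor of the pathway that Thbd starts, rose by 0.68 on the log2 scale (SE 0.095, adjusted p = 0.00317). Procr, the endothelial protein C receptor, was counted 4 to 22 times per mouse, and prothrombin (F2) and the 3 fibrinogen chains (Fga, Fgb and Fgg) 0 to 3 times. F2rl1, a second protease-activated receptor, was counted 1 to 10 times. F13a1, the chain that cross-links fibrin, rose 2.82-fold (SE 0.17 on the log2 scale, adjusted p = 0.00086), and Tgm2, a transglutaminase of tissue, by 0.83 on the log2 scale (SE 0.17, adjusted p = 0.0169). Tgm2 was also highest in SAH mice 3 and 4, and without the 3 mice rich in choroid plexus markers its rise was 0.49 on the log2 scale (adjusted p = 0.0319).

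Of the platelet and adhesion genes, Vwf, which endothelium and platelets release, rose by 1.43 on the log2 scale (SE 0.20, adjusted p = 0.00329), and Pf4 by 1.16 (SE 0.30, adjusted p = 0.0596). Pf4 was counted 6 to 37 times per mouse and lost its call in 5 of the 10 fits made with a mouse removed, those lacking SAH mouse 1, SAH mouse 2 or a Naive mouse. The remaining 6 genes of the platelet group that were tested did not pass, 5 of them with negative estimates. Thbs2, the closest relative of Thbs1, rose by 0.43 on the log2 scale (SE 0.12, adjusted p = 0.0718), and its call was lost in 7 of the 10 such fits, without SAH mouse 1, 2 or 4, any Naive mouse or Sham mouse 5. In SAH against Sham, 5 of the 31 pathway genes tested there were called higher (Anxa2, F13a1, Pros1, Serping1 and Vwf), beside 0.529% of all genes. In SAH against Naive 10 of the 31 were, beside 2.03% of all genes.

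**Figure D4:**
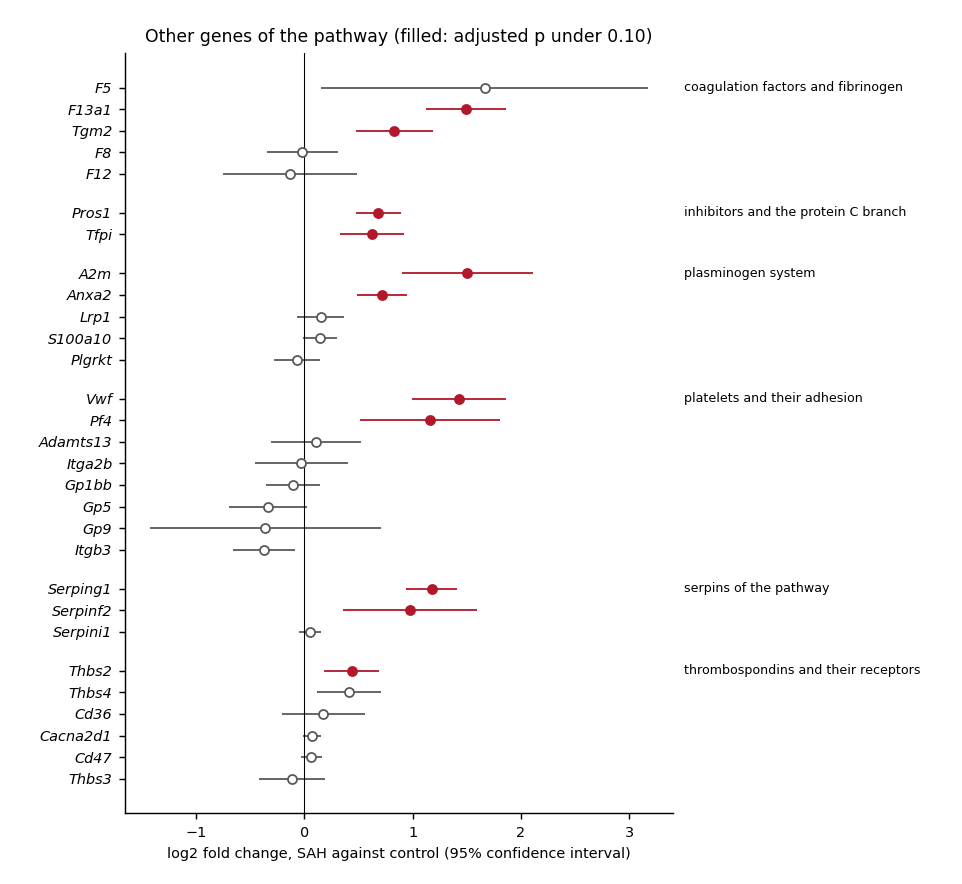
Log2 fold change in SAH against control (x axis) with 95% confidence intervals for the 29 other pathway genes that were tested, in groups by role, with filled points where the adjusted p was under 0.10. All 11 filled points lie above 0, the nearest to 0 being Thbs2 at 0.43.

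The 250 bases before the annotated transcript start of each gene were read from the NCBIM37 genome, on which all 77 exons of the 9 genes shared at least 1 end with an exon of the gene annotation of that build and 69 shared both ends. Those of the 2 called genes are printed because they are the ones with a measured change. Each runs 5′ to 3′ on the strand of the gene and ends at the base before the start, and capitals mark the match of any of 5 motifs searched on both strands: AP-1 (TGANTCA), EGR (GCGNGGGCG), SP1 (GGGCGG), SMAD (GTCTAGAC) and the start-site box whose letters are TATAAA. The first is chr2:148233925-148234174, minus strand, and the second chr16:17331214-17331463, plus strand.
Thbd: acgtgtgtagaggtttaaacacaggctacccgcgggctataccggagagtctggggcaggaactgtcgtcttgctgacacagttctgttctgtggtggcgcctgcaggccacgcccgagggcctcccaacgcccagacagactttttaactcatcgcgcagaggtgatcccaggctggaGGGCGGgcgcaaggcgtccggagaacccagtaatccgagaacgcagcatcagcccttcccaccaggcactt
Serpind1: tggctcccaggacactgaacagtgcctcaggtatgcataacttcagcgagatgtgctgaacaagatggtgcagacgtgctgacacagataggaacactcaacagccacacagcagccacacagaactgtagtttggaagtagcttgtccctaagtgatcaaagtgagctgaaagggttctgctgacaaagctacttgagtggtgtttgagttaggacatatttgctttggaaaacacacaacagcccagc

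The Thbd stretch held 1 SP1 match, 71 to 66 bases before the start, at 60.8% G and C. The Serpind1 stretch held no match of the 5 motifs and had 48.0% G and C, the lowest of the 9 genes, against a median of 54.8% over 24251 such stretches. SP1 letters were found before 8 of the 9 genes, in all but Serpind1, and in 58.1% of the stretches of genes tested. AP-1 letters were found before 3 (Plaur, F3 and F2r) and in 4.1% of the stretches of genes tested, with 2 matches in F3. EGR letters were found before 3 (Plaur, Serpine2 and Thbs1) and in 9.4%, and each of the 4 EGR matches shared bases with an SP1 match. SMAD letters (0.2%) and the TATAAA box (6.4%) were found before none. The 2 genes that rose shared no match of these motifs, and matches of letters describe the sequence only.

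**Figure D5:**
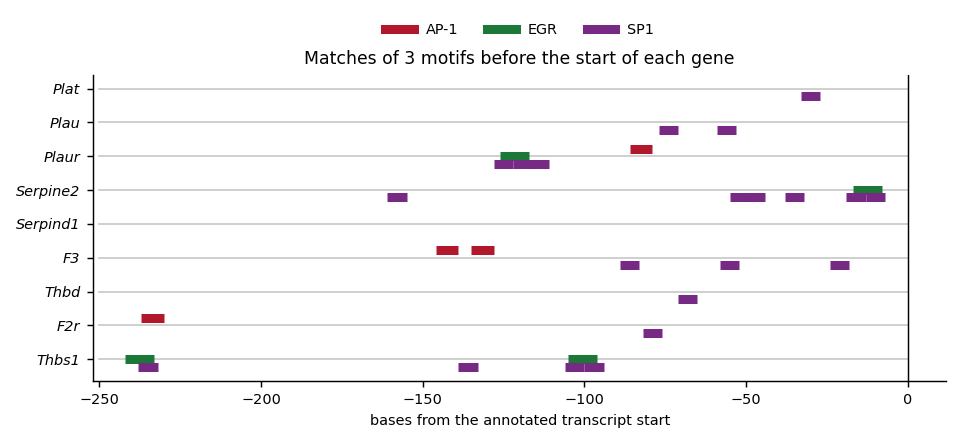
Positions of AP-1, EGR and SP1 letters in the 250 bases before the start of each of the 9 genes, with distance from the start on the x axis and 1 line per gene. The line of Thbd carries 1 SP1 match and that of Serpind1 none, while Serpine2 carries 6 SP1 matches and F3 2 AP-1 matches.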

How the data were processed

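Ribosome-depleted, stranded total RNA was sequenced in paired reads. The authors deposited 1 table of raw counts of read pairs per gene name and mouse, made with STAR on mm9 and, per the file headers, with featureCounts 1.6.2 on the reverse strand. The authors' gene length column, in bases (other unit), was deposited with the counts and used for FPKM. The exons carry the UCSC gene annotation. A pair counts only if it maps uniquely to 1 gene, so near-identical copies lose reads.

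From these, edgeR 4.0.16 (R 4.3.3) was run with TMM scaling, filterByExpr (minimum count 10, minimum total 15), glmQLFit and glmQLFTest, with Benjamini-Hochberg adjustment over all genes tested. SAH against control was fitted with 2 groups, and the other comparisons with 3 groups. Confidence intervals use the fit's t quantiles. Levels for likeness are log2 CPM with a prior count of 2. Alternatives were DESeq2 1.42.0, other scaling and filters, an adjusted p under 0.05, only the mice compared, and each mouse left out; leaving out the 3 mice rich in choroid plexus markers was chosen after seeing the data. The test was tested on simulated data for SAH against control (14978 genes), where edgeR called 200 of 200 changed genes and 20 others.

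The genes, the pathway and marker lists and the motifs were chosen with earlier results of these data known. All 9 genes are named, with the direct partners and called genes of the pathway list and the 2 genes most alike to each member; the fibrinogen chains were added after their values were seen. The rest of the pathway list is given by counts and in a plot, and a gene left out of that list is not reported here. Groups share no replicate numbers. Protein sequences were not used here. Libraries of 1 group are separate mice. The p-values weigh differences against the spread between mice, which edgeR estimates with information shared over all genes.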

Additional observations from a re-analysis of the deposited data

Results flagged for a closer look

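Among the 9 genes and the pathway genes named with them (30 genes, 60 groups of mice examined), 4 groups held 1 mouse far from the others by Dixon's test, where chance gives about 1 group in 20. None of the 4 concerns one of the 9 genes. Serping1 was at 14.8 CPM in SAH mouse 3 and at 17.5 to 17.7 CPM in the other SAH mice. F2 and Fgb were each at 0.051 CPM in SAH mouse 3, which is 1 count, and at 0 in the other SAH mice. A2m was at 5.99 CPM in Sham mouse 7 and at 3.55 to 4.29 CPM in the other control mice. Both of these mice were rich in choroid plexus markers, and the cause was not tested.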

How the results depend on the processing

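In SAH against control, Thbd kept its direction and its call under each alternative run with the threshold at 0.10, and Serpind1 under each of these but the leave-one-out fits already given. The fit without the 3 mice rich in choroid plexus markers dropped the SAH mice with the least of both genes, so it is no check of either call. At an adjusted p under 0.05, 1 of the 9 genes was called and 369 of all genes, against 701. Leaving out 1 mouse gave 1 to 2 of the 9 genes and 308 to 1093 of all genes, and leaving out the 3 mice rich in choroid plexus markers gave 2 of the 9 and 330 of all genes. The number of pathway genes called ranged from 8 to 12 over the alternatives. In SAH against Sham, 1 of the 9 genes (Thbd) was called by DESeq2, 1 with its size factors in edgeR and 1 with no filter. All genes called there numbered 109 and became 49 at an adjusted p under 0.05, 299 with DESeq2, 182 with no filter, 12 with only the mice of the 2 groups, and 6 to 215 with 1 mouse left out, which gave 0 to 2 of the 9. In SAH against Naive, DESeq2 called 2 of the 9, leaving out 1 mouse gave 1 to 2, and all genes called (453) became 260 at an adjusted p under 0.05, 736 with DESeq2, 282 with only the mice of the 2 groups and 109 to 683 with 1 mouse left out. In Sham against Naive, all genes called (1) became 2 with DESeq2, 3 with only the mice of the 2 groups and 0 to 1 with 1 mouse left out. Some estimates near 0 changed sign when 1 mouse was left out, none of them called: in SAH against control Plat (-0.10 to 0.25), Serpine2 (-0.013 to 0.029) and F3 (-0.0041 to 0.16), in SAH against Sham Plat (-0.040 to 0.31), Serpine2 (-0.027 to 0.018) and F3 (-0.036 to 0.16), in SAH against Naive Plat (-0.16 to 0.18), Serpine2 (-0.0099 to 0.042) and F2r (-0.037 to 0.18), and in Sham against Naive Serpine2 (-0.0027 to 0.045), Plau (-0.23 to 0.072), F2r (-0.15 to 0.064), Thbs1 (-0.075 to 0.32) and F3 (-0.028 to 0.14). The Plat to Serpine2 ratio differed by -0.10 to 0.22. Without the 3 mice rich in choroid plexus markers, Plat was at -0.10 and Lrp1 at -0.069 in SAH against control. The cause of these shifts was not tested. Plaur was not tested under the filter of 10 counts in every mouse. No paired analysis was possible because the groups share no replicate number. With 4 SAH and 6 control mice and counts of 3 to 20 per mouse, Plaur had the least precise estimate of the 9 genes in SAH against control.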
